A study of Mus musculus and Sus scrofa with 30 samples.

Results

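The members are 10 genes whose products make or use the glycerol backbone of stored fat, let glycerol out, or hold pyruvate back from oxidation. They are Pck1, Pck2, Pcx, Gpd1, Gpd2, Aqp7, Pdk1, Pdk2, Pdk3 and Pdk4. They were chosen by gene symbol, with Pcx listed as PC in the pig. All 10 were found among 24843 genes of the mouse table and 9 of 10 among 34307 genes of the pig table, where AQP7 was not found by symbol and is not analysed here. Each one found passed the minimum mean of 10 normalized counts, after which 15723 mouse and 14819 pig genes were tested; in the mouse, Pck1 passed only through the rosiglitazone libraries (its mean over the others was 9.83) and Aqp7 was under 10 in 2 of 3 vehicle libraries. The choice was made with earlier results of these libraries known, among them values of PCK1 and PDK4 in the pig cells and of Pcx and Pdk4 in the mouse cells. For PCK1 and PDK4 in the pig, for Pdk4 in the mouse, and for Pcx in the comparison of the combination with dicoumarol, levels and differences are therefore given as a description, with no test. So are those of mouse Pck1, because of the filter. Counts of members called below leave these out. The closing section on processing is the exception: it counts them too, and nothing is read from its counts. For the other members the adjusted p comes from the fit of the whole table, and none of these values is independent support.

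RNA was sequenced on day 5 of adipogenic induction in 2 systems, each with 5 groups of 3 libraries, 30 in all. The first was 3T3-L1, a mouse embryonic fibroblast line that can become adipocytes, induced with insulin, dexamethasone and isobutyl methylxanthine (IBMX, which keeps cAMP from being broken down) in 10% serum. The other was DFAT cells, dedifferentiated fat cells of the pig, former adipocytes of subcutaneous fat that have returned to a fibroblast-like state, induced with dexamethasone, IBMX, biotin and pantothenate in 2% serum; insulin is not named in that mix. The 5 groups of each system received DMSO as vehicle, dicoumarol (a coumarin anticoagulant), magnolol (a lignan of magnolia bark), dicoumarol together with magnolol (called the combination below), or rosiglitazone (a synthetic agonist of the fat cell receptor PPARγ) during differentiation. Every group, vehicle included, therefore carried dexamethasone and IBMX, at doses that differed between the systems. In 3T3-L1 they were 75 nM dexamethasone and 37.5 µM IBMX, with insulin at 0.75 µg/mL. In DFAT they were 0.5 µM dexamethasone and 12.5 µM IBMX, with biotin at 20 µM and pantothenate at 10 µM. Labels and protocols state no doses of dicoumarol, magnolol or rosiglitazone. They do not say whether the 3 libraries of a group came from separate cultures, so a p measures only the spread between these libraries. They do not say how many pigs the DFAT cells came from either.

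Glyceroneogenesis is the making of glycerol 3-phosphate, the backbone of triglyceride, from pyruvate rather than from glucose. Pyruvate carboxylase (Pcx) turns pyruvate into oxaloacetate in mitochondria, phosphoenolpyruvate carboxykinase (Pck1 in the cytosol, Pck2 in mitochondria) carries it on to phosphoenolpyruvate, and the cytosolic glycerol 3-phosphate dehydrogenase Gpd1 makes glycerol 3-phosphate. In fat cells the route lets fatty acids be stored again, Pck1 is a known PPARγ target there, and Aqp7 is the channel through which glycerol leaves the cell. Gpd2, the mitochondrial dehydrogenase, works in the opposite direction and passes electrons to the respiratory chain. The 4 pyruvate dehydrogenase kinases Pdk1 to Pdk4 phosphorylate and inactivate pyruvate dehydrogenase, which keeps pyruvate from being turned into acetyl-CoA and so available to the carboxylase.

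Values are the authors' normalized counts, that is, counts divided by a size factor for each library. Sequencing depth, estimated from the steps between low values, ranged from 22.8 to 30.7 M counted reads in the mouse libraries and from 44.8 to 70.5 M in those of the pig. A log2 fold change (a difference of log2(value + 1)) was called where limma's p, adjusted over all genes of the table by Benjamini and Hochberg, was under 0.05. On this scale the change of a gene near 0 is understated. The tables were normalized separately, so mouse and pig values are set side by side and no difference between them was tested. Scaling libraries to an equal total in place of the size factors left no called member with its sign reversed, but it moved the median of all DFAT genes by −0.14 (magnolol against vehicle), −0.16 (combination against vehicle), −0.11 (combination against dicoumarol) and 0.18 (rosiglitazone against the combination) on the log2 scale. The share of called genes that were higher went with it from 70.0% to 12.2%, from 60.1% to 11.9%, from 85.3% to 48.6% and from 48.4% to 88.1% in these comparisons, from 46.9% to 28.4% with dicoumarol in DFAT, from 50.5% to 40.3% with rosiglitazone in 3T3-L1, and from 52.1% to 32.2% for rosiglitazone against the combination in 3T3-L1.

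Markers of fat cells differed between the same groups. In 3T3-L1 the summed level of 6 adipocyte markers (Adipoq, Fabp4, Plin1, Cidec, Lpl and Lep) was 42277 to 60055 normalized counts in the vehicle libraries, 58975 to 93216 with dicoumarol, 83219.8 to 127728 with magnolol, 111342 to 174600.0 with the combination and 311975 to 554293 with rosiglitazone. In DFAT the ranges were 15282 to 18343, 18489 to 19797, 26726 to 33525, 42699 to 46338 and 59108 to 62403. With vehicle, Lpl made up most of the sum, at a mean of 44013 for the mouse and 15637 for the pig. The sums therefore do not describe each of the 6 markers. PLIN1 in DFAT rose more steeply, from a mean of 140 with vehicle to 4683 with rosiglitazone. LEP did not follow there, at means of 9.55 with vehicle, 31.8 with the combination and 13.3 with rosiglitazone. Sums of 6 preadipocyte and fibroblast markers moved opposite to the adipocyte sums in 3T3-L1. They went from 139290.0 to 160354 with vehicle to 79855 to 100651 with rosiglitazone. In DFAT 5 of the 6 were found, and their sum was nearly all collagen, COL1A1, at 970133 to 1084530.0 normalized counts with vehicle, 1729010.0 to 2020960.0 with the combination and 788290.0 to 895681 with rosiglitazone. The other expressed ones were lower in both treated groups: PDGFRA was at 56399 to 65376, 31852 to 35558 and 26236 to 30701, DCN at 9261 to 9641, 4285 to 4609 and 4171 to 4926, and LUM at 53793 to 60172, 33102 to 36586 and 26549.9 to 30037, while DLK1 stayed under 1. Fewer fat cells and less RNA per fat cell cannot be told apart in such bulk libraries, and the part of this shift in the results below was not tested. Liver also makes Pck1, Pcx and Pdk4: Apoa1, the 1 hepatocyte marker found of 4 in the mouse, reached at most 5.24, and 3 markers found in the pig summed to 54.0 to 107. Markers of endothelium summed to 6.29 to 29.5 in the mouse and 149 to 239 in the pig libraries, and of epithelium to 0 to 5.96 and 0 to 16.7, with KDR and CDH1 listed at 0 in every DFAT library. Those of skeletal muscle, mostly desmin, summed to 48.5 to 118 in the mouse; in the pig they were at 25.4 to 76.4 with vehicle, 89.9 to 96.4 with dicoumarol, 57.2 to 129 with magnolol, 141 to 158 with the combination and 41.0 to 101 with rosiglitazone. Macrophage markers, mostly Cd14, went from 234 to 269 with vehicle to 123 to 171 with rosiglitazone in the mouse and summed to 675 to 1039 in the pig, while Itgam, a defining one, stayed under 6 in every library. The part of these shifts in the results was not tested either.

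Promoter sequence from RefSeq (assembly GRCm38.p6; 250 bases before to 50 after a start site) is shown for 3 of the genes that stood higher together, and for Pdk4, which did not. Windows were found for 9 of 10 members, 14 in all. Capitals mark matches, on either strand, to 6 motifs: the cAMP response element TNACGTCA, the nuclear receptor half-site AGGTCA, 2 such half-sites spaced by 1 base as bound by PPARγ with RXR (AGGTCANAGGTCA, which contains the half-site), the C/EBP motif TTNNGNAA, the glucocorticoid response element AGAACANNNTGTTC, and the TATA box TATAAA. Pck1 at chr2:173152823-173153122 (+) holds the cAMP response element TTACGTCA, which 2.93% of 32851 windows hold, with its first base 93 bases before the start site, and a C/EBP match. Aqp7 at chr4:41047913-41048212 (−) holds the half-site on the reverse strand at 2 places, and Pcx at chr19:4594069-4594368 (+) at 1 place. The Pcx match lies after the start site, with its first base at position 40. Both genes have another window, which is not shown. That of Aqp7, at chr4:41048087-41048386 (−), holds a half-site and a C/EBP match. That of Pcx, at chr19:4510222-4510521 (+), holds none of the 6 motifs. Of all windows, 16.3% hold the half-site and 40.7% the C/EBP motif. Pdk4 at chr6:5496229-5496528 (−) holds none of the 6 in this window, and neither the pair of half-sites (0.0396% of windows) nor the glucocorticoid element (0.0487%) was found in any member's window. A match is a string of letters, not a shown binding site, and a missing match says only that these letters are not in this window.
Pck1: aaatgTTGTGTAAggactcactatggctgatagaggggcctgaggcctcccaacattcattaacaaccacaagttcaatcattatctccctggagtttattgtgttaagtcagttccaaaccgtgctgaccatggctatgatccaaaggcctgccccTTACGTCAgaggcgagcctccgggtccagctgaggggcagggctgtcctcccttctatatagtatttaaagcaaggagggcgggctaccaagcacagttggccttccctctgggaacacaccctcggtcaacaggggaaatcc
Aqp7: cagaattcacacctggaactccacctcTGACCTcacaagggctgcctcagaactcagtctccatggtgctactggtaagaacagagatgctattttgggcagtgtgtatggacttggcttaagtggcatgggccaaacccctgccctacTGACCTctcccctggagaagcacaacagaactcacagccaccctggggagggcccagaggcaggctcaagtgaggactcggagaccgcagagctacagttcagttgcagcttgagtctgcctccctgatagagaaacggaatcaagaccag
Pcx: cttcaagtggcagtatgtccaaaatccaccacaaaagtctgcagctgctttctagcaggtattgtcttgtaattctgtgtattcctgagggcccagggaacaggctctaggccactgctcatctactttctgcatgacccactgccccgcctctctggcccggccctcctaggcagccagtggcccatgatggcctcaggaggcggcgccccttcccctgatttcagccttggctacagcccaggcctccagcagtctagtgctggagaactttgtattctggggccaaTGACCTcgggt
Pdk4: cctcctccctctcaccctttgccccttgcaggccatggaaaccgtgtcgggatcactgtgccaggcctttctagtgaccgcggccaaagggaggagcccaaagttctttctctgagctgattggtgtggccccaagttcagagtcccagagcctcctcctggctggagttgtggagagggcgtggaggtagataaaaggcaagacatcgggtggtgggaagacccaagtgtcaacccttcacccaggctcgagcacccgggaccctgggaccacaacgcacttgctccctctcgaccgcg

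In 3T3-L1 cells 4 members stood higher under magnolol, the combination and rosiglitazone alike: Pcx, Pck1, Gpd1 and Aqp7. The carboxylase Pcx (ENSMUSG00000024892, chromosome 19) was at 5715, 5224 and 5616 normalized counts in vehicle replicates 1, 2 and 3. It was at 8661, 6711 and 8445 with dicoumarol, 12501, 11133 and 12104 with magnolol, 16881, 12998 and 12383 for the combination and 19794, 20406 and 19138 with rosiglitazone. The libraries of each treated group lay above all 3 vehicle libraries, and those of rosiglitazone above all others. Pcx rose by 1.11 (SE 0.12, adjusted p 0.00105) on the log2 scale with magnolol, by 1.34 (SE 0.12, adjusted p 6.53e-05) with the combination and by 1.84 (SE 0.12, adjusted p 6.98e-08) with rosiglitazone. With dicoumarol the log2 difference was 0.52 (SE 0.12, adjusted p 0.907); with the replicate number as a block, since equal numbers pair the 3T3-L1 libraries, the adjusted p was 0.0167.

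The cytosolic carboxykinase Pck1 (ENSMUSG00000027513, chromosome 2) was close to absent with vehicle, at 0.891, 0.856 and 0 normalized counts in replicates 1, 2 and 3. It was at 14.1, 0.952 and 6.83 with dicoumarol, 12.6, 9.49 and 15.7 with magnolol, 20.3, 10.4 and 25.8 for the combination and 81.8, 39.1 and 114 with rosiglitazone. The magnolol, combination and rosiglitazone libraries lay above those of vehicle. Dicoumarol replicate 2 did not differ from vehicle in reads. Its 0.952 is about 1 read at that library's size factor, as are the 0.891 and 0.856 of vehicle replicates 1 and 2. On the log2(value + 1) scale its differences from vehicle were 2.01 (SE 0.62) with dicoumarol, 3.13 (SE 0.62) with magnolol, 3.62 (SE 0.62) with the combination and 5.58 (SE 0.62) with rosiglitazone. No fold is given, since vehicle held about 1 read or none per library, and with a pseudocount of 0.1 the magnolol difference was 4.77.

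Gpd1, which makes glycerol 3-phosphate in the cytosol (ENSMUSG00000023019, chromosome 15), was at 969, 256 and 180.0 normalized counts with vehicle. It was at 2663, 596 and 663 with dicoumarol, 3631, 1838 and 2448 with magnolol, 4334, 1691 and 2786 for the combination and 7731, 6148 and 10996 with rosiglitazone. Replicate 1 was the highest library of every group except rosiglitazone, where replicate 3 was, and the dicoumarol libraries overlapped those of vehicle. Gpd1 rose by 2.83 (SE 0.58, adjusted p 0.0265) with magnolol, 2.94 (SE 0.58, adjusted p 0.00680) with the combination and 4.50 (SE 0.58, adjusted p 2.19e-05) with rosiglitazone, the last a 22.6-fold rise on the log2(value + 1) scale. The glycerol channel Aqp7 (ENSMUSG00000028427, chromosome 4) was at 16.0, 5.14 and 8.14 with vehicle, 37.1, 13.3 and 23.4 with dicoumarol, 47.5, 30.6 and 76.3 with magnolol, 79.1, 28.3 and 95.3 for the combination and 278, 183 and 415 with rosiglitazone. Here too the dicoumarol libraries overlapped those of vehicle and the other treated groups did not. Within each replicate number, however, the dicoumarol library lay above that of vehicle for both Gpd1 and Aqp7. The log2 differences with dicoumarol were 1.52 (SE 0.58) for Gpd1 and 1.27 (SE 0.50) for Aqp7, and neither was called. Aqp7 rose by 2.32 (SE 0.50, adjusted p 0.0317), 2.63 (SE 0.50, adjusted p 0.00514) and 4.82 (SE 0.50, adjusted p 3.06e-06) with magnolol, the combination and rosiglitazone. Fat cell markers measured in the same libraries moved likewise: Adipoq, the adiponectin gene, was at 794, 187 and 379 with vehicle and at 20741, 7971 and 12776 with rosiglitazone, with log2 differences of 2.88, 3.18 and 5.06 for the same 3 treatments.

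Among all 3T3-L1 genes tested, 1.07% were called higher and 0.153% lower with magnolol, 3.86% and 1.36% with the combination, 20.3% and 19.9% with rosiglitazone, and 0% and 0% with dicoumarol, where 393 genes had an unadjusted p under 0.05. These shares come from the fit without the replicate block, which does not use the pairing of the 3T3-L1 libraries. The 0% with dicoumarol is therefore not a sign of no effect. With the block, 1 of the 8 members tested was called with dicoumarol, Pcx. In the fit without it, 0 of the 8 were called with dicoumarol, 3 higher with magnolol, 3 higher with the combination, and 4 higher and 1 lower with rosiglitazone. The 10 members' median log2 difference was 0.11, 0.22, 0.27 and 0.50 in these 4 comparisons, against −0.01 to 0.00 over all genes. Nothing is read from these counts, since the members were chosen with results of the same contrasts known. The magnolol calls of Gpd1 and Aqp7 each ended on leaving out vehicle library 2 or 3, or magnolol library 1 or 3, with adjusted p of 0.0947 to 0.151 for Gpd1 and 0.112 to 0.187 for Aqp7, whereas that of Pcx held. The Gpd1 call with the combination ended without combination replicate 1 (log2 difference 2.61, adjusted p 0.0571).

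**Figure D1:**
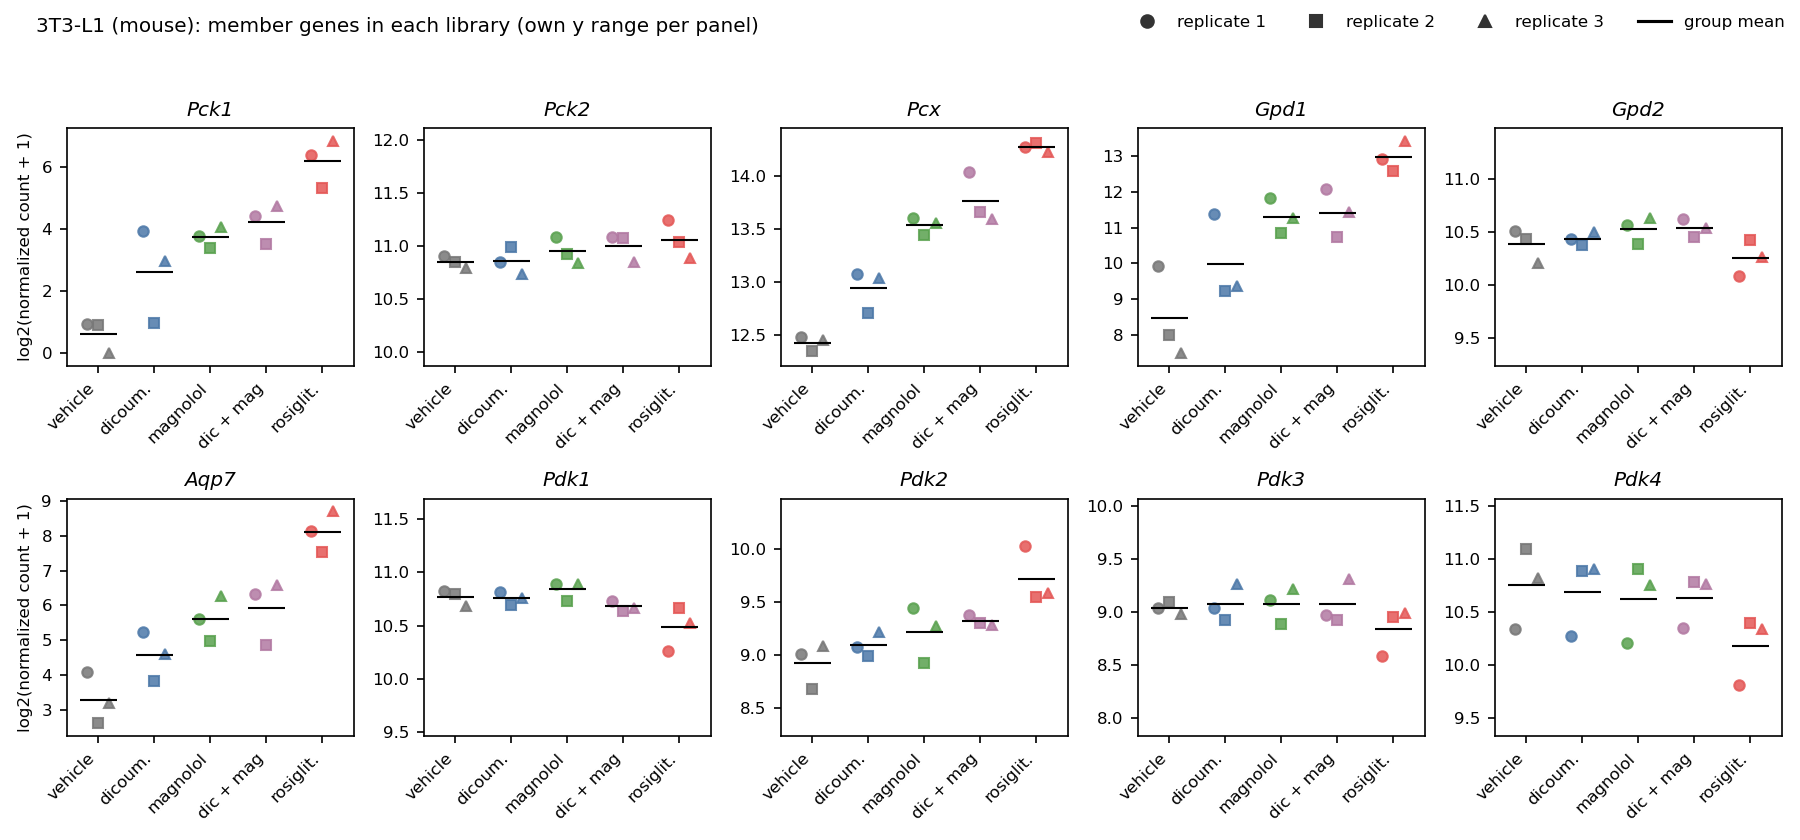
Each panel plots 1 member in the 15 mouse 3T3-L1 libraries as log2(normalized count + 1), with its own y range, by group (dic + mag is the combination), with 1 symbol per replicate number and a bar at the group mean. The 3 rosiglitazone libraries of Pck1, Pcx, Gpd1 and Aqp7 sit above all others, while replicate 1 is the lowest library of every group for Pdk4.

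The 2 mitochondrial enzymes Pck2 and Gpd2 differed little between groups. Pck2, the mitochondrial carboxykinase, was at 1842 ± 71.9 normalized counts with vehicle (mean ± SD, n = 3), 1858 ± 166 with dicoumarol, 1979 ± 172 with magnolol, 2054 ± 187 for the combination and 2138 ± 274 with rosiglitazone. Its log2 difference with rosiglitazone was 0.21 (SE 0.11, adjusted p 0.132), or adjusted p 0.0267 with the replicate block. Gpd2, the mitochondrial dehydrogenase, was at 1340.3 ± 142, 1387 ± 62.8, 1482 ± 127, 1489 ± 88.3 and 1229 ± 141 in the same order, with treated and vehicle libraries overlapping in every comparison. Its log2 differences from vehicle ran from −0.13 with rosiglitazone to 0.16 with the combination (SE 0.10), and none was called.

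The 4 kinases went different ways with rosiglitazone. Pdk2 (ENSMUSG00000038967, chromosome 11) was at 516, 411 and 544 normalized counts in the vehicle libraries and 1042, 748 and 766 in the rosiglitazone libraries, all 3 above the highest vehicle library. It rose by 0.79 (SE 0.15, adjusted p 0.000617). With the combination its libraries, at 664, 629 and 622, also lay above those of vehicle, with a log2 difference of 0.39 (SE 0.15, adjusted p 0.171), and the adjusted p was 0.0263 with the replicate block. Pdk1 (ENSMUSG00000006494, chromosome 2) was at 1813, 1777 and 1639 with vehicle and 1225, 1622 and 1468 with rosiglitazone, each below every vehicle library. Pdk1 fell by 0.29 on the log2 scale (SE 0.10, adjusted p 0.0272). That call ended without vehicle replicate 1 (0.0835), vehicle replicate 2 (0.0713) or rosiglitazone replicate 1 (log2 difference −0.17, adjusted p 0.150), and in a fit of the compared groups alone (0.118).

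Pdk4, the kinase that fasting and fatty acids induce in many tissues (ENSMUSG00000019577, chromosome 6), was at 1298, 2182 and 1811 normalized counts with vehicle. It was at 1239, 1892 and 1918 with dicoumarol, 1187, 1924 and 1731 with magnolol, 1309, 1766 and 1736 for the combination and 898, 1347 and 1300.4 with rosiglitazone. Replicate 1 was the lowest library of each group, so that vehicle replicate 1 fell among the rosiglitazone libraries, while within each replicate number rosiglitazone was the lowest of the 5 groups. The log2 difference of rosiglitazone from vehicle was −0.57 (SE 0.23) and those of the other 3 treatments lay between −0.13 and −0.06. Without vehicle replicate 1 the rosiglitazone difference was −0.77. Pdk3 (ENSMUSG00000035232, chromosome X) was at 524 ± 21.5 with vehicle and 461 ± 68.3 with rosiglitazone, with overlapping libraries in every comparison and no call.

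Levels of different genes can be compared per kilobase of merged exon length. On that scale Pcx was the most abundant member of every 3T3-L1 group, at 1161 ± 54.7 normalized counts per kb with vehicle and 4161 ± 133 with rosiglitazone. Pck1 was the least abundant, at 0.170 ± 0.147 and 22.8 ± 10.9, against 236 ± 9.20 and 274 ± 35.1 for Pck2, so the mitochondrial carboxykinase held by far the larger level even where Pck1 was highest. Gpd1 went from 158 ± 147 to 2800.3 ± 835, from a level overlapping that of Gpd2 (205 ± 21.7 with vehicle) to well above it. Of the kinases, Pdk4 had the highest mean in every group, at 502 ± 127 with vehicle and 337 ± 70.3 with rosiglitazone, where the intervals of Pdk4 and Pdk2 (269 ± 52.1) overlapped. This rank depends on the exon lengths, 3511 bases for Pdk4 and 7779 for Pdk1. In counts not divided by length, the mean of Pdk1 was above that of Pdk4 in every treated group (1438 against 1182 with rosiglitazone). With vehicle the order from the top was Pcx, Pdk4, Pck2, Pdk1 (224 ± 11.8), Gpd2, Pdk3 (205 ± 8.40), Gpd1, Pdk2 (155 ± 22.2), Aqp7 (3.45 ± 1.99) and Pck1. From Pck2 down to Pdk2 no neighbours differed beyond their SD. With rosiglitazone it was Pcx, Gpd1, Pdk4, Pck2, Pdk2, Gpd2 (188 ± 21.5), Pdk1 (185 ± 25.8), Pdk3 (180.1 ± 26.7), Aqp7 (103 ± 41.3) and Pck1, with Gpd1 now second. The neighbours from Pdk4 to Pdk2, and Gpd2, Pdk1 and Pdk3 among themselves, did not differ beyond their SD there.

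**Figure D2:**
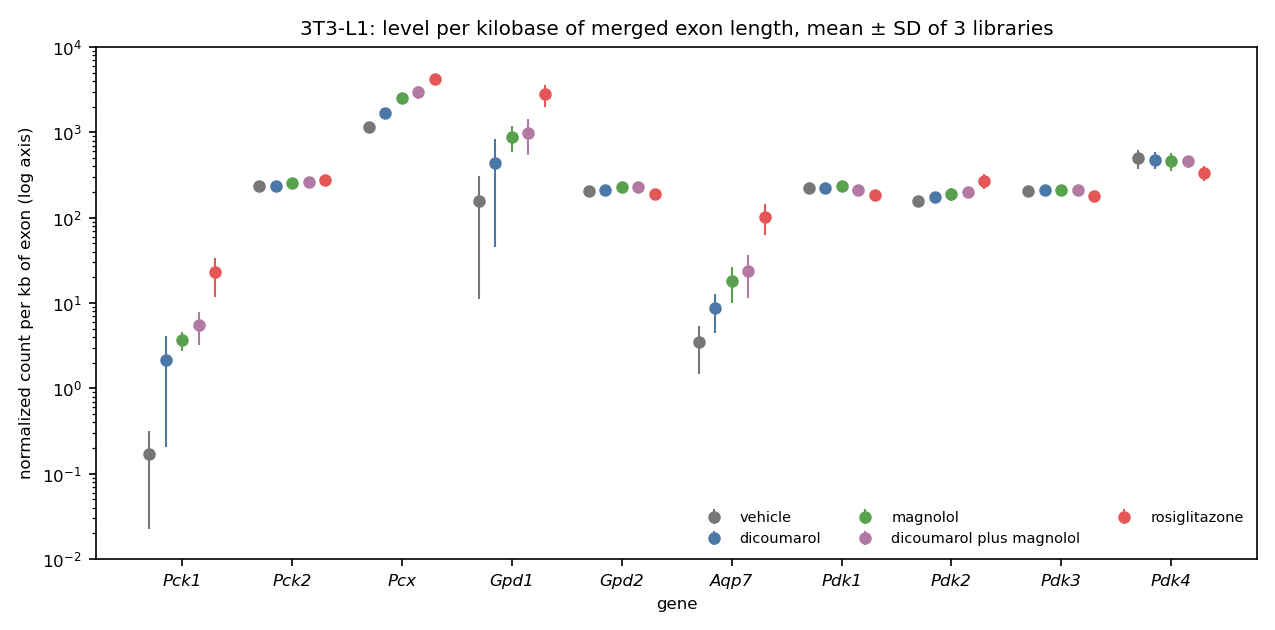
Points are group means of normalized counts per kilobase of exon in 3T3-L1 on a log axis, bars are the SD of 3 libraries, and colours are the 5 groups. Pck1, Gpd1 and Aqp7 span more than 1 order of magnitude between vehicle and rosiglitazone, Pcx stays the most abundant, and the means of the other 6 differ from vehicle by less than 2-fold.

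In the porcine DFAT cells PCK1 spanned the widest range of all members, and PDK4 and PCK2 also stood higher in every treated group. GPD2 was called lower with magnolol and the combination. Only with rosiglitazone were PC called lower and PDK1 higher. PCK1 (ENSSSCG00000007507, chromosome 17) was at 12.7, 24.3 and 4.07 normalized counts in vehicle replicates 1, 2 and 3. It was at 52.6, 37.7 and 11.8 with dicoumarol, 212, 210.2 and 130.5 with magnolol, 562, 432 and 377 for the combination and 2445, 1804 and 1652 with rosiglitazone. From magnolol on, each group lay wholly above the one before, and only dicoumarol overlapped vehicle. The log2 differences from vehicle were 1.31 (SE 0.49), 3.91 (SE 0.49), 5.23 (SE 0.49) and 7.33 (SE 0.49). ADIPOQ, at 23.7, 42.0 and 19.3 with vehicle and 3535, 3688 and 4717 with rosiglitazone, moved by 3.39, 5.75, 6.29 and 7.15 in the same comparisons.

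PCK2 (ENSSSCG00000002009, chromosome 7), the mitochondrial enzyme, was at 1869, 1971 and 1884 normalized counts with vehicle. It was at 2398, 2329 and 2233 with dicoumarol, 2654, 2477 and 2273 with magnolol, 2511, 2513 and 2195 for the combination and 3222, 3069.5 and 3119.5 with rosiglitazone. All 12 treated libraries lay above the 3 of vehicle. PCK2 rose by 0.28 (SE 0.07, adjusted p 0.0377) with dicoumarol, 0.37 (SE 0.07, adjusted p 0.00295) with magnolol, 0.33 (SE 0.07, adjusted p 0.00344) with the combination and 0.72 (SE 0.07, adjusted p 9.78e-07) with rosiglitazone. The first of these calls ended when any 1 of the 6 libraries compared was left out (adjusted p 0.0598 to 0.18), and the first 3 ended with equal totals (0.280, 0.0779 and 0.157). Of the summed counts of PCK1 and PCK2, PCK1 made up 0.702% ± 0.501 with vehicle (mean ± SD, n = 3), 15.9% ± 2.09 with the combination and 38.3% ± 4.40 with rosiglitazone, against 0.0310% ± 0.0268, 0.930% ± 0.452 and 3.59% ± 1.94 in 3T3-L1. These shares are of counts that were not divided by gene length.

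PC, the pig's pyruvate carboxylase (ENSSSCG00000012926, chromosome 2), was at 6534, 6093 and 4702 normalized counts with vehicle. It was at 5611, 5070.1 and 4576 with dicoumarol, 5945, 5630.0 and 4625 with magnolol, 5828, 5489.7 and 4858 for the combination and 4459, 3908 and 3423 with rosiglitazone. In every group replicate 1 was the highest library and replicate 3 the lowest, and the rosiglitazone libraries alone lay below all 3 of vehicle. PC fell by 0.55 on the log2 scale with rosiglitazone (SE 0.13, adjusted p 0.00699), a call that ended without vehicle replicate 1 (−0.45, adjusted p 0.0503). In 3T3-L1 the same comparison gave a rise of 1.84; the difference between the systems was not tested. With the other 3 treatments the log2 differences of PC lay between −0.17 and −0.09 (SE 0.13), and none was called.

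GPD2 (ENSSSCG00000015872, chromosome 15) was at 12799, 10615 and 12487 normalized counts with vehicle, 10397, 9434 and 9830.1 with dicoumarol, 9481, 8414 and 9302 with magnolol, 8578, 7959 and 8776 for the combination and 9846, 10935 and 10681 with rosiglitazone. The dicoumarol, magnolol and combination libraries all lay below those of vehicle, and the rosiglitazone libraries overlapped them. GPD2 fell by 0.40 (SE 0.07, adjusted p 0.00361) with magnolol and by 0.50 (SE 0.07, adjusted p 0.000207) with the combination. With dicoumarol the log2 difference was −0.27 (SE 0.07, adjusted p 0.0818); it passed the threshold without vehicle replicate 2 (−0.36, adjusted p 0.0186). The rosiglitazone difference, −0.19 (SE 0.07, adjusted p 0.138), did so too without that library (−0.27, 0.0279). GPD1, at 117 ± 32.7 with vehicle and 166 ± 59.5 with rosiglitazone (mean ± SD, n = 3), overlapped vehicle in every group, with log2 differences of 0.36 to 0.51 (SE 0.25) and no call. It was low in rosiglitazone replicate 2, at 102 against 219 and 178 in the others, and without that library it passed the threshold (0.78, 0.0280).

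Of the pig's kinases PDK4 (ENSSSCG00000015334, chromosome 9) was at 10.1, 14.0 and 16.3 normalized counts with vehicle. It was at 18.5, 24.8 and 22.6 with dicoumarol, 26.1, 31.1 and 17.9 with magnolol, 19.6, 63.5 and 48.4 for the combination and 65.4, 65.1 and 49.9 with rosiglitazone. Every treated library lay above the vehicle libraries, and combination replicate 1 stood well below the other 2 of its group. The log2 differences from vehicle were 0.68 (SE 0.35), 0.83 (SE 0.35), 1.50 (SE 0.35) and 2.09 (SE 0.35). Without combination replicate 2 the combination difference was 1.16. PDK4 was only 0.0898% ± 0.0191 of the summed counts of the 4 kinases with vehicle and 0.369% ± 0.0652 with rosiglitazone (mean ± SD, n = 3), where the mouse gene made up 38.6% ± 6.72 and 29.8% ± 3.90, in counts not divided by length.

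PDK1 (ENSSSCG00000015958, chromosome 15), known as the hypoxia-induced kinase, was at 5109.9, 4270.1 and 5682 normalized counts with vehicle and 6563, 8749 and 6838 with rosiglitazone, each above every vehicle library. PDK1 rose by 0.55 (SE 0.10, adjusted p 0.00101) with rosiglitazone, against a fall of 0.29 of Pdk1 in 3T3-L1, a difference between systems that was not tested. The other 3 treatments gave −0.17 to 0.21 (SE 0.10) and no call. PDK2 was at 1698 ± 77.5 with vehicle and PDK3 at 8285 ± 652, and both overlapped vehicle in every group with no call. Rosiglitazone replicate 2 was the highest library of its group for PDK1, PDK2 and PDK3, and without it the PDK3 difference went from −0.18 to −0.35 with an adjusted p of 0.00414.

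Among all DFAT genes tested, 0.911% were called higher and 1.03% lower with dicoumarol, 2.96% and 1.27% with magnolol, 6.11% and 4.06% with the combination, and 5.8% and 5.02% with rosiglitazone. Of the 7 members tested, 1 was called higher with dicoumarol, 1 higher and 1 lower with magnolol, 1 higher and 1 lower with the combination, and 2 higher and 1 lower with rosiglitazone. As in the mouse, nothing is read from these counts. The 9 members' median log2 difference was 0.09, 0.21, 0.13 and 0.46, against −0.01 to 0.00 over all genes.

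**Figure D3:**
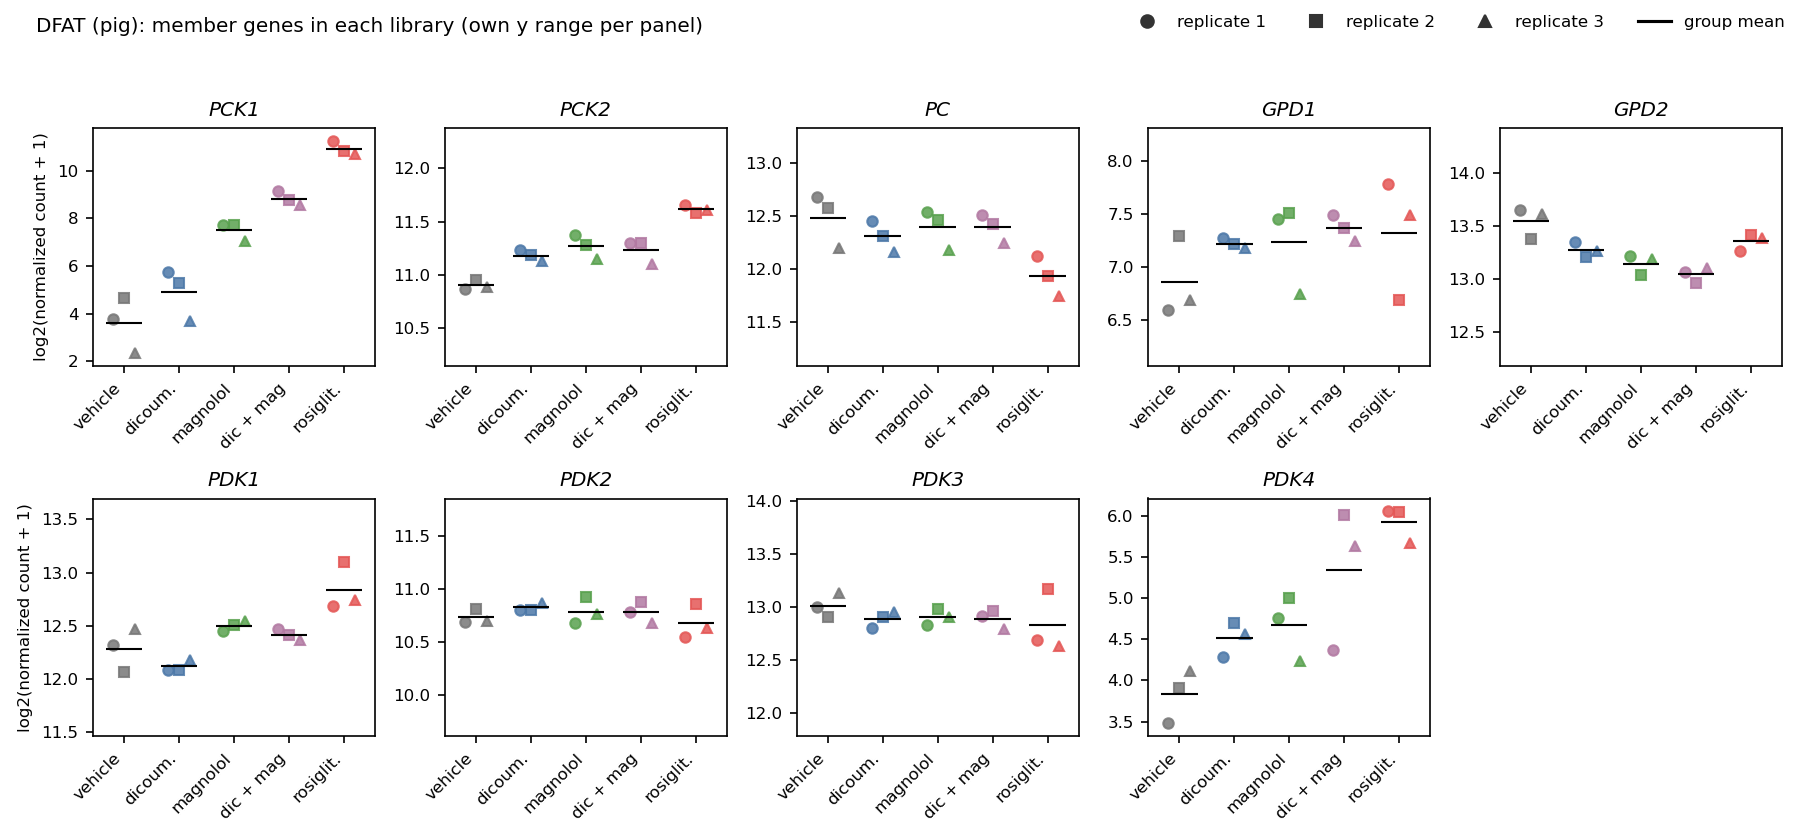
Each panel plots 1 of the 9 members found in the 15 porcine DFAT libraries as log2(normalized count + 1), with its own y range, by group, with 1 symbol per replicate number and a bar at the group mean. PCK1 steps up from dicoumarol to rosiglitazone, PCK2 of every treated library sits above vehicle, and PC is lowest with rosiglitazone.

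**Figure D4:**
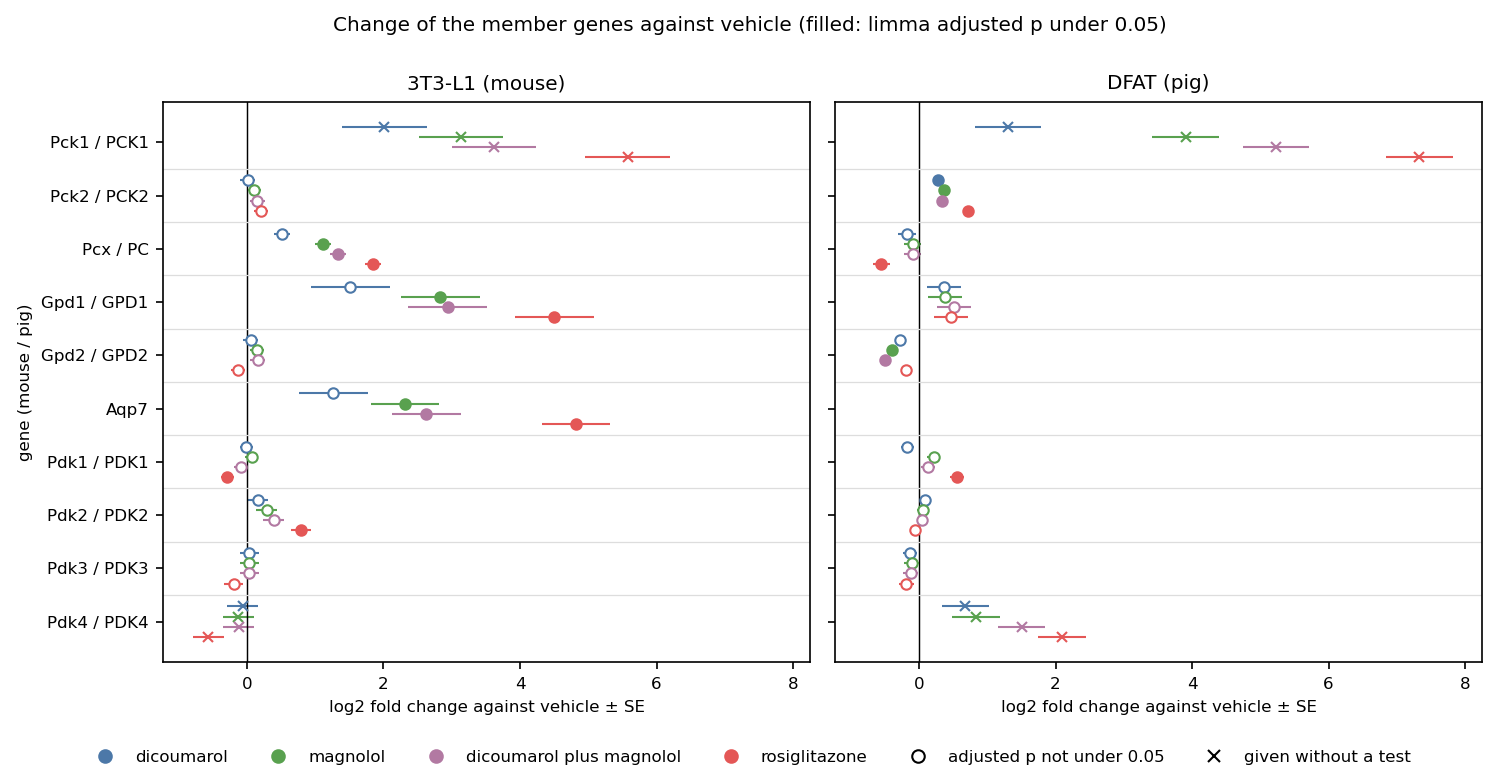
Points are log2 fold changes of each member against vehicle with their SE, for 4 treatments (colours), in 3T3-L1 on the left and DFAT on the right, with filled points where limma's adjusted p was under 0.05 and crosses for members given without a test. With rosiglitazone Pcx lies at 1.84 and PC at −0.55, Pdk1 at −0.29 and PDK1 at 0.55, and PCK1 reaches 7.33.

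The combination was also set against each of its 2 compounds, and rosiglitazone against the combination; these comparisons share libraries with those above. Against dicoumarol, the combination had 0 of 7 members called in 3T3-L1, where 0.0254% of all genes were called in either direction. Pcx, given as a description, differed by 0.82 (SE 0.12), with every combination library above every dicoumarol library. Gpd1, at 1.43 (SE 0.58), and Aqp7, at 1.36 (SE 0.50), were called there with the replicate block (adjusted p 0.0396 and 0.0122, against 0.496 and 0.402 without it). In DFAT 0 of 7 members were called (2.35% of all genes). The combination libraries of GPD2 lay below those of dicoumarol (−0.23, SE 0.07, limma adjusted p 0.153). Those of PDK1 lay above them (0.30, SE 0.10, limma adjusted p 0.166). GPD2 was called with the replicate block (adjusted p 0.0342), quantile normalization (0.0270) and equal totals (0.00974). PDK1 was called in a fit of the compared groups alone (0.00890). PCK1 and PDK4, again as a description, differed by 3.92 (SE 0.49) and 0.82 (SE 0.35); the PCK1 libraries of the 2 groups did not overlap and those of PDK4 did.

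Against magnolol alone 0 members tested were called in either system, where limma called 0% of all 3T3-L1 genes (336 had an unadjusted p under 0.05) and 0.621% of all DFAT genes. The widest member difference in 3T3-L1 was that of Pck1, 0.48 (SE 0.62), with overlapping libraries. In DFAT all 3 combination libraries of PCK1 lay above all 3 of magnolol, with a difference of 1.32 (SE 0.49). The interaction, that is, how far the combination's difference departs from the sum of those of dicoumarol and magnolol, was called for 0% of 3T3-L1 genes (78 with an unadjusted p under 0.05) and 0.081% of DFAT genes, and for 0 members. Its members' values in 3T3-L1 were lowest for Pck1 at −1.53 (SE 0.88) and Gpd1 at −1.41 (SE 0.82, adjusted p 1.00), and in DFAT for PCK2 at −0.32 (SE 0.10, adjusted p 0.675), with PCK1 at 0.01 (SE 0.69). A p that misses the threshold does not show that the effects of the 2 compounds add up.

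Against the combination, rosiglitazone had 2 of 8 members called in 3T3-L1 (18.3% of all genes). Aqp7 was higher by 2.19 (SE 0.50, adjusted p 0.00868) and Pcx by 0.50 (SE 0.12, adjusted p 0.00964), each with no overlap between libraries. Pck1 differed by 1.96 (SE 0.62) and Pdk4 by −0.45 (SE 0.23), as a description. With the replicate block 5 members were called, adding Gpd1 (1.56, adjusted p 0.00407), Pdk2 (0.40, 0.0113) and Gpd2 (−0.28, 0.0417). Without rosiglitazone replicate 2 there were also 5, with Gpd2 at −0.36, Pdk1 at −0.29 and Pdk2 at 0.48 added. In DFAT 4 of 7 members were called (17% of all genes). PCK2 was higher by 0.38 (SE 0.07, adjusted p 0.000667), PDK1 by 0.42 (SE 0.10, adjusted p 0.00648) and GPD2 by 0.31 (SE 0.07, adjusted p 0.00735), and PC was lower, at −0.46 (SE 0.13, adjusted p 0.0169). The PC call ended without combination replicate 1 (0.0732) or 2 (0.0510) or rosiglitazone replicate 3 (0.0824), and with equal totals, where its difference was −0.28; that of GPD2 was then 0.49. PCK1 differed by 2.10 (SE 0.49) and PDK4 by 0.59 (SE 0.35), as a description.

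Genes around the members were taken from 4 lists, whose counts stand against 3.86% of all 3T3-L1 genes called higher and 1.36% lower with the combination, 20.3% and 19.9% with rosiglitazone, and, in DFAT, 6.11% and 4.06%, then 5.8% and 5.02%. These 4 lists were written with earlier results of these data known, so nothing is read from their counts. The first held the pyruvate dehydrogenase complex that the kinases act on, its phosphatases and the mitochondrial pyruvate carrier. In 3T3-L1 5 of its 10 genes were called higher and 0 lower with the combination, and 8 higher and 1 lower with rosiglitazone, with a median log2 difference of 0.47 and 0.95 against −0.01 to 0.00 over all genes. The largest were those of Pdhb, the beta subunit of the first enzyme of the complex, at 1427 ± 156 normalized counts with vehicle (mean ± SD, n = 3) and 4529 ± 774 with rosiglitazone, up by 0.84 and 1.66 (SE 0.13, adjusted p 3.79e-07). The phosphatase Pdp1, which undoes the kinases' phosphorylation, was lowest of the list, at −0.39 (SE 0.22, adjusted p 0.400) and −1.33 (SE 0.22, adjusted p 0.000177). In DFAT 1 of 9 was called higher with the combination (MPC2 of the pyruvate carrier, 0.18) and 2 with rosiglitazone, none lower; the phosphatase PDP2 was highest there at 0.33 (SE 0.06, adjusted p 0.000942), and PDP1 lowest at −0.21 and −0.17, not called.

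The second list held 12 genes of the malate, aspartate, lactate and citrate routes to oxaloacetate, the substrate of the carboxykinases. In 3T3-L1 6 were called higher with the combination and 9 with rosiglitazone, none lower (all genes, 3.86% and 20.3% higher), and the median log2 differences were 0.43 and 0.88. The dicarboxylate carrier Slc25a10 was highest, at 613 ± 97.0 normalized counts with vehicle and 2599.8 ± 439 with rosiglitazone, up by 1.32 and 2.08 (SE 0.19, adjusted p 8.80e-07), and the aspartate carrier Slc25a12 lowest at 0.03 and −0.20, not called. In DFAT 0 were called higher and 1 lower with the combination, which was the lactate dehydrogenase subunit LDHB at −0.21 (SE 0.06, adjusted p 0.0258), and 2 higher with rosiglitazone, led by LDHA at 0.42 (SE 0.09, adjusted p 0.00322). SLC25A12 was at 0.17 and −0.09 there, and the median differences were −0.04 and 0.06.

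The third list held 9 genes that handle glycerol and glycerol 3-phosphate, of which 7 were tested in each system. In 3T3-L1 4 were called higher with the combination and 7 with rosiglitazone, none lower (all genes, 3.86% and 20.3% higher), with median differences of 0.44 and 0.97. Gpat3, which puts the first fatty acid on glycerol 3-phosphate, was highest, at 162 ± 51.2 normalized counts with vehicle and 2470.1 ± 848 with rosiglitazone, up by 2.58 and 3.90 (SE 0.38, adjusted p 1.55e-06). Lowest were glycerol kinase, Gk, with the combination (0.16, not called) and Gpd1l, a relative of Gpd1, with rosiglitazone (0.30). In DFAT 3 were called higher with the combination and 3 with rosiglitazone, none lower, with medians of 0.10 and 0.22. AQP3, another glycerol channel, was highest, at 185 ± 31.7 with vehicle, 2133 ± 225 with the combination and 3842 ± 555 with rosiglitazone, up by 3.53 (SE 0.13, adjusted p 3.72e-12) and 4.37 (SE 0.13, adjusted p 1.85e-13), and GPD1L (−0.21) and GPAM (0.01), an acyltransferase, were lowest and not called.

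The fourth list held 13 transcription factors known to act on Pck1 or Pdk4. In 3T3-L1 3 were called higher and 0 lower with the combination and 6 higher and 2 lower with rosiglitazone, where all genes gave 20.3% and 19.9%. Cebpa, a late factor of fat cell formation, was highest, at 339 ± 123 normalized counts with vehicle and 2948 ± 744 with rosiglitazone, up by 1.90 and 3.15 (SE 0.39, adjusted p 1.48e-05), and Nr2f2 lowest at −0.26 (not called) and −0.60 (SE 0.11, adjusted p 0.000390). In DFAT 3 were called higher and 3 lower with the combination and 4 higher and 1 lower with rosiglitazone. PPARGC1A, the coactivator PGC-1α, was highest, at 3.33 ± 3.03 with vehicle, 20.4 ± 2.37 with the combination and 64.9 ± 8.32 with rosiglitazone, up by 2.70 (SE 0.54, adjusted p 0.00313) and 4.32 (SE 0.54, adjusted p 2.61e-05), and CEBPD lowest at −0.45 and −0.23 (SE 0.06, adjusted p 0.0228). Median differences were 0.27 and 0.33 in 3T3-L1 and −0.05 and 0.09 in DFAT. With dicoumarol alone 0 genes of the 4 lists were called in 3T3-L1, and with magnolol alone 2, 2, 2 and 0, all higher. Over the 4 lists the 3T3-L1 counts came to 0, 6, 18 and 33 of the genes tested with dicoumarol, magnolol, the combination and rosiglitazone; with the replicate block the first 2 were 6 and 18. The magnolol count fell to between 0 and 2 without vehicle replicate 2 or 3 or magnolol replicate 1 or 3, and the combination count to 10 without combination replicate 1.

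**Figure D5:**
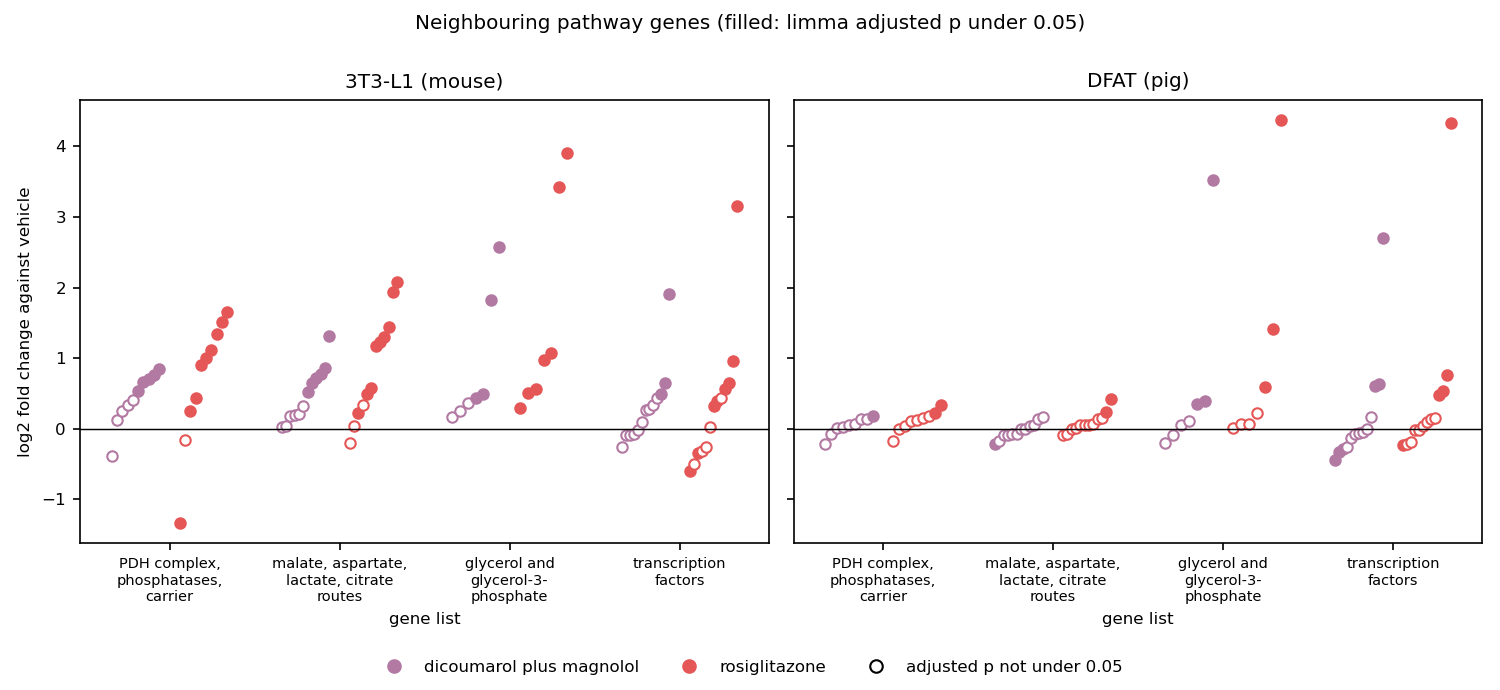
Points are log2 fold changes against vehicle of the genes of the 4 lists, sorted within a list, for the combination and for rosiglitazone, in 3T3-L1 on the left and DFAT on the right, filled where limma's adjusted p was under 0.05. In 3T3-L1 most genes of the first 3 lists lie above 0 with rosiglitazone, and in DFAT most lie near 0 apart from AQP3 (4.37) and PPARGC1A (4.32).

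Finally, genes were ranked by how closely their 5 group means followed those of Pck1, Gpd1 and Pdk4, as the root mean square difference of the centred log2 means over the 5 groups, among 11609 mouse and 11345 pig genes with a symbol and a mean of at least 100. In 3T3-L1 the nearest to Pck1 were Adipoq (0.204), Cd36 (0.236) and G0s2 (0.249), that is adiponectin, a fatty acid transporter and a lipase inhibitor. Nearest to Gpd1 were Lgals12 (0.10), Fam83a (0.132) and Retn (0.155), the last being resistin, and nearest to Pdk4 were Dcp1b (0.00589), Angpt1 (0.0172) and Mtmr10 (0.0198). In DFAT the nearest to PCK1 were RBP5 (0.757), ADIPOQ (0.924) and SGK2 (0.989), to GPD1 SH3BP2 (0.0233), LGALS1 (0.0290) and TIAM2 (0.0340) and to PDK4 B4GALNT1 (0.0791), APOE (0.146) and MGST1 (0.175). The distances to mouse Pck1, Gpd1 and Pdk4 lie below the SE of these genes' differences from vehicle (0.62, 0.58 and 0.23). So do those to GPD1 and PDK4 in DFAT (SE 0.25 and 0.35). The nearest genes of these members are thus not told apart from others within that spread. Only the distances to PCK1 in DFAT lie above its SE (0.49). Distances to different members do not compare with each other. Adiponectin was among the 3 nearest to Pck1 in both systems, though in DFAT no gene came closer than 0.757. This is a description only, as are the other values of Pck1 and PCK1. The mouse distances rest on vehicle libraries with about 1 read of Pck1 or none, and so on the pseudocount of 1. No other pseudocount was tried for them.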

How the data were processed

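The members and the gene lists were chosen with earlier results of these data known. Reads came from libraries that mark strand, made from RNA enriched for mRNA, per the labels' protocols. STAR, DESeq2, bcl2fastq 2.19.1.403 and the mouse build GRCm38 are named in the submitters' processing notes; for the counter, its strand setting, the annotation and the pig build, nothing is stated in the labels or headers. The deposited signal is the authors' normalized count, a gene's count divided by a size factor for each library. Low values (up to 20 reads) came out whole within 0.02 for 81.2% to 82.6% of values per 3T3-L1 library and 90.0% to 91.1% per DFAT library, so reads were not recovered, no count model was used, and the depth is an estimate from the size of those steps. Coordinates of the deposited tables were not printed, since only 2.18% of 24070 shared mouse genes had the same start in GENCODE M21.

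With limma 3.58.1 in R 4.3.3, log2(value + 1) of genes with a mean of at least 10 was fitted over the 15 libraries of a table with 5 group means and a variance trend, and p was adjusted over all genes tested (threshold 0.05, two-sided). Tables and figures were made with Python 3.11.15, numpy 2.4.6, pandas 2.3.3 and matplotlib 3.10.9, and the fit was tested on simulated data. Levels per kb used merged exon lengths of GENCODE M21. All members are named; of each list, the genes with the largest and the smallest log2 fold change with the combination and with rosiglitazone; and for Pck1, Gpd1 and Pdk4 the 3 genes of the most similar group means. Deviations from the group means correlated in all 30 pairs of 3T3-L1 libraries with the same replicate number (0.106 to 0.462, median 0.300; different numbers, median −0.142), so these numbers were taken to pair libraries. In DFAT only 16 of 30 pairs were above 0.1 (−0.306 to 0.345). These 16 included every pair within magnolol, the combination and rosiglitazone (0.105 to 0.345). The rest of the 16 involved vehicle or dicoumarol. The alternatives were a replicate block, only the groups compared, a pseudocount of 0.1, no filter on low genes, no variance trend, quantile normalization, equal totals, and leaving out each library.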

Additional observations from a re-analysis of the deposited data

Results flagged for a closer look

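These results had every library of a group shifted one way in 3T3-L1 and the other way in DFAT under the same contrast. The difference between the 2 systems was not tested, since their tables were normalized separately. Pyruvate carboxylase stood out in 2 contrasts: with rosiglitazone against vehicle Pcx was at 1.84 and PC at −0.55 on the log2 scale, and with rosiglitazone against the combination Pcx was at 0.50 and PC at −0.46. The mitochondrial glycerol 3-phosphate dehydrogenase stood at −0.28 (Gpd2) and 0.31 (GPD2) in rosiglitazone against the combination, where the mouse value did not pass the threshold (limma adjusted p 0.0705) without the replicate block. The kinase stood at −0.29 (Pdk1) and 0.55 (PDK1) in rosiglitazone against vehicle.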

How the results depend on the processing

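No called member value changed sign. Of 25 called values of the members tested, refitted 325 times, 291 refits kept the call and 34 lost it, and 16 values never lost it; the cause of a loss was not tested. The counts that come next are over all members, those given as a description included. They describe how the fit moves, are no test of those members, and nothing is read from them. In DFAT the count for the combination against magnolol was PCK1 alone. The 7 for rosiglitazone against the combination in 3T3-L1 included Pck1 and Pdk4. The number of members under the threshold moved by over 1.5 times as follows. With the replicate block it was 1 in place of 0 (3T3-L1, dicoumarol), 3 in place of 1 (3T3-L1, combination against dicoumarol), 7 in place of 3 (3T3-L1, rosiglitazone against the combination), 3 in place of 1 (DFAT, dicoumarol), 2 in place of 1 (DFAT, combination against dicoumarol) and 1 in place of 0 (DFAT, combination against magnolol). Without a variance trend it was 1 in place of 4 with magnolol in 3T3-L1, 0 in place of 1 for the combination against dicoumarol in 3T3-L1, and 0 in place of 1 with dicoumarol in DFAT. In fits of the compared groups alone it was 0 (3T3-L1, combination against dicoumarol), 2 (DFAT, combination against dicoumarol) and 1 (DFAT, combination against magnolol). With dicoumarol in DFAT it was 0 with no filter and 2 after quantile normalization, and 2 for the combination against dicoumarol in DFAT after quantile normalization or with equal totals. Leaving out each library in turn gave 1 to 4 members with magnolol, 3 to 4 with the combination, 5 to 7 with rosiglitazone, 0 to 1 for the combination against dicoumarol and 2 to 6 for rosiglitazone against the combination in 3T3-L1. In DFAT it gave 0 to 1 with dicoumarol, 3 to 4 with the combination, 4 to 7 with rosiglitazone, 1 to 2 for the combination against dicoumarol and 4 to 6 for rosiglitazone against the combination. Of the genes of the 4 pathway lists, 13 in place of 4 were called with magnolol in DFAT, and 24 in place of 15 for rosiglitazone against the combination, with equal totals. The vehicle libraries of 3T3-L1 held about 1 read of Pck1 or none, so its level there could not be measured at this depth.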
